A study of Mus musculus with 9 samples.

Results

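Genes through which the lining of blood vessels receives VEGF, angiopoietin and BMP signals were followed across 9 whole-lung arrays of ovalbumin-challenged and saline-treated mice. The genes are Vegfa, its receptors Kdr, Flt1 and Flt4, the Tie receptors Tek and Tie1, the BMP receptor genes Acvrl1 and Eng with the downstream gene Tmem100, and Esm1. They were chosen by symbol, and each of the 10 was matched by exactly 1 probe, which makes 10 of 39464 probes and 10 of 25760 named genes. The mice were BALB/c and about 12 weeks old, a background and age that every group shared. The 5 OVA lungs came from mice challenged with ovalbumin (OVA, an egg protein used as an allergen), which according to the labels had inflamed, hyperreactive airways and raised IgE. The 4 PBS lungs came from mice treated with phosphate-buffered saline. By the labels each 2-colour array carried the RNA of 1 lung in channel 2 (Cy5) and a pool of PBS lungs in channel 1 (Cy3). The labels give no dose, route or timing of the challenge, nor whether the lungs are from separate mice, and p-values measure only the spread between these samples.

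VEGF-A is released by epithelial and other cells and acts on endothelium mainly through the kinase Kdr (VEGFR2), while Flt1 (VEGFR1) binds it tightly and limits its supply, and Flt4 (VEGFR3) serves VEGF-C and VEGF-D and marks lymphatic vessels. Tek (Tie2) is the receptor of the angiopoietins and Tie1 its partner, and together they keep the endothelium quiet and tight. Acvrl1 (ALK1) and its co-receptor Eng (endoglin) receive BMP9 and BMP10, and Tmem100 is a membrane protein that depends on this route in endothelium. Esm1 (endocan) is a proteoglycan secreted by VEGF-stimulated endothelial cells. The lung holds one of the largest capillary beds of the body, and Kdr, Tek and Tmem100 are typical of its endothelium.

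Because the genes moved together in the ratio, the sequence next to their starts is shown for 3 of the 4 genes with a difference of at least 2-fold in the deposited ratio (Kdr, Tek and Esm1) and for Flt4, the gene with the smallest difference. The windows are the 250 bases before the RefSeq transcription start in GRCm38.p6, and 8 of the 10 genes had such an entry, Tmem100 and Acvrl1 not. They lie at chr5:75978456-75978705 on the minus strand for Kdr, chr4:94739039-94739288 on the plus strand for Tek, chr13:113209409-113209658 on the plus strand for Esm1 and chr11:49609429-49609678 on the plus strand for Flt4. Sequences read 5′ to 3′ toward the start, and capitals mark matches to any motif searched.
Kdr: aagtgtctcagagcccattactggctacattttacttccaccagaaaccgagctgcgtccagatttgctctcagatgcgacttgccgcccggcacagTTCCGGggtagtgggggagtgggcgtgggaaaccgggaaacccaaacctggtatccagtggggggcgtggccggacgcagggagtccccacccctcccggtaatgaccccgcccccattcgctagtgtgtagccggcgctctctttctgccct
Tek: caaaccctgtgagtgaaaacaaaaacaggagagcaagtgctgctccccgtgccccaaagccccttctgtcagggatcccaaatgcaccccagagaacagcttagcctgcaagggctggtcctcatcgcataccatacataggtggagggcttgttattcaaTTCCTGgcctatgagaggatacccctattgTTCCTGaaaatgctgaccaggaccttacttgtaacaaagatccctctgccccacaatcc
Esm1: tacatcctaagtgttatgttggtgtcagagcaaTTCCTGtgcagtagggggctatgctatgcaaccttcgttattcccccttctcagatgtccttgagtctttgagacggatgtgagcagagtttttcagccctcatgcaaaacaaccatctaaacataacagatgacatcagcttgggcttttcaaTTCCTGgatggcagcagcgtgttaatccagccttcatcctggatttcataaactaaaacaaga
Flt4: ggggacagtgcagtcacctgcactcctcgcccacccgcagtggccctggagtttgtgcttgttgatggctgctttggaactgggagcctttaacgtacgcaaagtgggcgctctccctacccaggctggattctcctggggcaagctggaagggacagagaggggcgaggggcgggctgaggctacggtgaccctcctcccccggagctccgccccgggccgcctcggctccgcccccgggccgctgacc

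Strings of 5 to 7 letters were searched on both strands. The first string typical of ETS factors, CAGGAA, stood in 4 of the 9 windows of these genes (Vegfa has 2 starts) and in 25.7% of 32851 promoter windows of the same length. It occurred at 2 places before Tek, 2 before Esm1, 1 before Tie1 and 1 before the first start of Vegfa. The other ETS string, CCGGAA, overlaps the first in its last letters and stood only before Kdr among the 9 windows and in 12% of all windows. Either ETS string stood in 5 of the 9 windows, against 35.1% of all. The hypoxia response core ACGTG stood before the second start of Vegfa alone, and in 16.6% of all windows. That window, chr17:46025164-46025413 on the minus strand, lies downstream of the first Vegfa start, inside the gene. The window before the first start, chr17:46032378-46032627, held no match to it. The forkhead string TGTTTAC was in none of the 9 windows and in 3.17% of all. The Smad string GGCGCC was likewise in none of the 9, and in 9.59% of all. These are matches of letters in short windows.

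The single channels go against the labels, and this bears on every direction given here. Clca1, a protein of mucus-producing goblet cells, had a deposited intensity of 36.4 ± 2.03 in channel 2 on OVA arrays, against 0.362 ± 0.0642 in channel 1 (SD, n = 5). On the PBS arrays it was at 33.3 ± 3.84 in channel 2 and 33.6 ± 1.20 in channel 1 (SD, n = 4). Fabp1, a fatty acid binding protein, was high only in channel 1 of the OVA arrays, at 2.47 ± 0.318 against 0.126 ± 0.0152 in channel 2, and was at 0.103 ± 0.015 and 0.108 ± 0.005 in channels 2 and 1 of the PBS arrays. Channel 1 of the OVA arrays therefore differs from the other 3 sets of channels, although by the labels it holds the same pool as channel 1 of the PBS arrays. Below, "fell" and "lower" refer to the deposited ratio of channel 2 over channel 1 on OVA against PBS arrays. Summed over 8 adipose genes, OVA arrays had 2.68 to 2.92 in channel 2 and 3.43 to 9.58 in channel 1. PBS arrays had 1.38 to 5.31 in channel 2 and 2.74 to 2.87 in channel 1. For 9 heart muscle genes channels 2 and 1 held 25.64 to 28.96 and 34.92 to 48.44 on OVA arrays. On PBS arrays they held 14.43 to 48.26 and 27.4 to 31.02. These sums spread more in channel 1 on OVA arrays and more in channel 2 on PBS arrays. Whether channels or group names were exchanged was not tested, so the main counts are also given for single channels or with the sign of the OVA ratios turned. Values without such a counterpart hold for the deposited ratio alone.

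Each of the 10 genes fell in the ratio, 4 of them at least 2-fold, with limma (two-sided, Benjamini-Hochberg over 25719 genes, adjusted p under 0.05). Over all genes tested, 23% fell, 17.3% rose (40.3% in either direction), and 0.583% fell at least 2-fold. These shares include many dim genes, and on each array 27.7% to 48.8% of probes had equal intensities in both channels. Apart from Flt4, the 10 probes lay between percentiles 68.5 (Acvrl1) and 99.6 (Eng) of intensity. Shares over genes of like intensity are not given here. The median log2 change of the 10 was -0.58, against -0.02 over all genes. For each of the 10, every OVA array lay below every PBS array, an order seen for 19.7% of all genes. With the sign of the OVA ratios turned, 9 of the 10 were higher (22.5% of all genes, 39.0% in either direction) and Flt4 did not pass. Then 3 of the 10 were at least 2-fold higher (0.630% of all genes), since Kdr came to 1.83-fold. A fit over all probes used the same 10 probes and gave the same log2 changes, so its 10 calls are not separate support. There 18.9% of 39413 probes fell (33.9% in either direction). With the replicate number as a block 9 of the 10 fell (16.9% of all genes fell and 29.8% changed in either direction). The genes were chosen with earlier results of these arrays known, so these counts describe them and are not a test of the group. In whole-lung RNA, a difference in the number of endothelial cells and a difference in RNA per cell cannot be told apart.

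**Figure D1:**
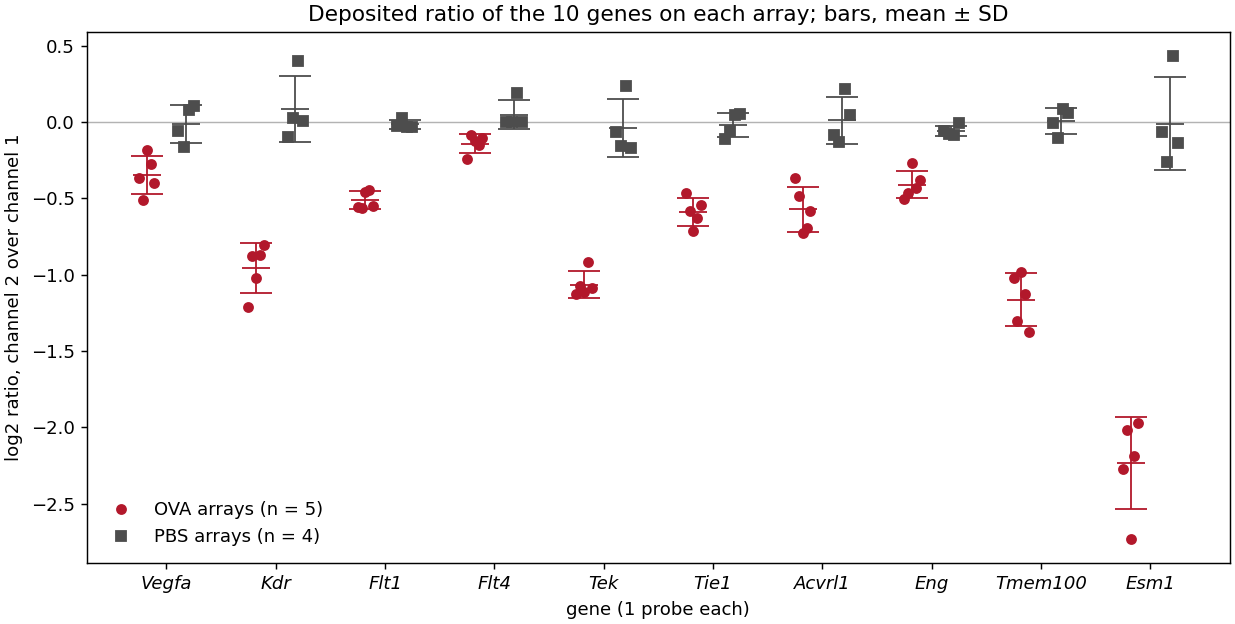
Log2 ratio of channel 2 over channel 1 for each of the 10 genes (horizontal axis) on the 5 OVA arrays (red circles) and the 4 PBS arrays (grey squares), with group means and SD as bars. The groups do not overlap for any of the 10 genes, and the OVA arrays run from between -0.24 and -0.08 for Flt4 to between -2.73 and -1.97 for Esm1.

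Vegfa, the ligand, had one of the smaller differences. On OVA replicates 1 to 5 its intensity was 2.47, 2.35, 2.44, 2.37 and 2.66 in channel 2, against 3.19, 3.34, 2.77, 2.86 and 3.5 in channel 1. On PBS replicates 1 to 4 it was 2.34, 2.36, 2.85 and 2.57 in channel 2, against 2.44, 2.64, 2.7 and 2.39 in channel 1. Channel 1 of the OVA arrays was above the other 3 sets except that its lowest value, 2.77, lay under the 2.85 of PBS replicate 3 in channel 2. The ratio fell by 0.34 ± 0.08 on the log2 scale (SE, n = 5 against 4, 95% interval -0.52 to -0.15, limma adjusted p = 0.00904), which is 1.26-fold.

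Kdr, the main signalling receptor of VEGF-A, fell about 2-fold. Its intensity was 5.22, 5.01, 5.29, 6.1 and 5.52 in channel 2 of the OVA arrays, against 12.1, 9.18, 10.7, 11.1 and 9.66 in channel 1. The PBS arrays had 4.73, 5.03, 6.7 and 5.38 in channel 2 and 5.05, 4.93, 5.08 and 5.35 in channel 1. Channel 1 of the OVA arrays thus stood alone, with no value under 9.18, and the next highest value was the 6.7 of PBS replicate 3 in channel 2. The log2 change was -1.04 ± 0.12 (SE, limma adjusted p = 1.70e-04), or 2.06-fold with a 95% interval of 1.71 to 2.48.

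Flt1, the high-affinity receptor that limits VEGF-A, fell less and with the smallest SE of the 10. Channel 2 of the OVA arrays held 14.02, 13.2, 14.1, 13.5 and 13.4, and channel 1 held 20.6, 19.4, 19.3, 18.4 and 19.6. On the PBS arrays channel 2 held 13, 13.5, 13.5 and 12.7, and channel 1 held 13.2, 13.3, 13.8 and 12.99. No value outside channel 1 of the OVA arrays exceeded 14.1. Between the groups Flt1 had a log2 change of -0.50 ± 0.03 (SE, limma adjusted p = 9.16e-06), or 1.41-fold.

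Flt4, the receptor of lymphatic endothelium, was dim and changed least. It was at 0.11, 0.17, 0.11, 0.09 and 0.13 in channel 2 of the OVA arrays, against 0.13, 0.18, 0.12, 0.1 and 0.14 in channel 1. The PBS arrays had 0.14, 0.13, 0.08 and 0.12 in channel 2, against 0.14, 0.13, 0.07 and 0.12 in channel 1. All 4 sets of channels overlapped, each OVA array had channel 2 below channel 1 by 0.01 or 0.02, and intensities are deposited to 2 decimals. The log2 change of -0.19 ± 0.05 (SE, limma adjusted p = 0.0173) did not keep its call with the sign of the OVA ratios turned (adjusted p = 0.19) or in channel 1 alone (adjusted p = 0.49).

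Tek, the angiopoietin receptor, fell about 2-fold. OVA replicates 1 to 5 had 1.13, 1.08, 1.2, 1.76 and 0.96 in channel 2, against 2.47, 2.27, 2.6, 3.32 and 2.04 in channel 1. PBS replicates 1 to 4 had 1.08, 1.03, 1.38 and 1.04 in channel 2, against 1.13, 1.15, 1.17 and 1.17 in channel 1. OVA replicate 4 was the highest of its group in both channels, and its log2 ratio of -0.92 was the nearest to 0 in that group. For Tek this gave a log2 change of -1.02 ± 0.09 (SE, limma adjusted p = 3.75e-05), or 2.03-fold.

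Tie1, the partner of Tek, fell 1.48-fold. It was at 3.38, 3.15, 3.2, 2.88 and 3.16 in channel 2 of the OVA arrays, against 4.67, 4.72, 5.25, 4.46 and 4.6 in channel 1. The PBS arrays had 3.1, 3.09, 3.7 and 3.42 in channel 2, against 3.35, 3.21, 3.59 and 3.3 in channel 1. Only channel 1 of the OVA arrays went above 3.7. For Tie1 this gave a log2 change of -0.57 ± 0.06 (SE, limma adjusted p = 8.12e-05).

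Among the BMP genes, the receptor Acvrl1 fell 1.5-fold. Its intensities were 0.31, 0.35, 0.32, 0.26 and 0.3 in channel 2 of the OVA arrays, against 0.4, 0.49, 0.53, 0.42 and 0.45 in channel 1. They were 0.32, 0.31, 0.36 and 0.31 in channel 2 of the PBS arrays, against 0.34, 0.34, 0.31 and 0.3 in channel 1. The probe was dim, and still no value outside channel 1 of the OVA arrays passed 0.36. The log2 change was -0.58 ± 0.10 (SE, limma adjusted p = 0.00140).

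Eng, the co-receptor of Acvrl1, was the brightest of the 10 probes and fell 1.28-fold. It was at 28.1, 28.4, 27.7, 25.1 and 27.4 in channel 2 of the OVA arrays, against 39.8, 39.2, 33.3, 33.8 and 35.6 in channel 1. On the PBS arrays it was at 26.1, 24.8, 27.7 and 27.4 in channel 2, against 27.1, 26.2, 29.3 and 27.6 in channel 1. The OVA arrays spread more in channel 1 (33.3 to 39.8) than in channel 2 (25.1 to 28.4). The log2 change was -0.35 ± 0.05 (SE, limma adjusted p = 4.59e-04). After quantile normalisation of the channels it was -0.55.

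Tmem100, which depends on the Acvrl1 route, fell 2.25-fold. It was at 12.7, 12.8, 12.0, 13.4 and 8.03 in channel 2 of the OVA arrays, against 25.9, 31.4, 23.7, 29.2 and 20.8 in channel 1. The PBS arrays had 13.04, 11.8, 13.5 and 14.2 in channel 2, against 13.1, 12.7, 12.7 and 13.6 in channel 1. OVA replicate 5 was low in both channels, and its log2 ratio of -1.38 was the lowest of the group. The log2 change was -1.17 ± 0.09 (SE, limma adjusted p = 1.85e-05).

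Esm1, the secreted product of VEGF-stimulated endothelium, had the largest difference of the 10, at 4.68-fold (95% interval 3.46 to 6.32). On the OVA arrays channel 2 held 0.25, 0.25, 0.24, 0.29 and 0.23, against 1.21, 1.01, 1.59, 1.32 and 0.9 in channel 1. On the PBS arrays channel 2 held 0.21, 0.2, 0.31 and 0.2, against 0.22, 0.24, 0.23 and 0.22 in channel 1. OVA replicate 3 had both the highest channel 1 value and the lowest log2 ratio, -2.73. The log2 change was -2.23 ± 0.19 (SE, limma adjusted p = 3.39e-05).

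**Figure D2:**
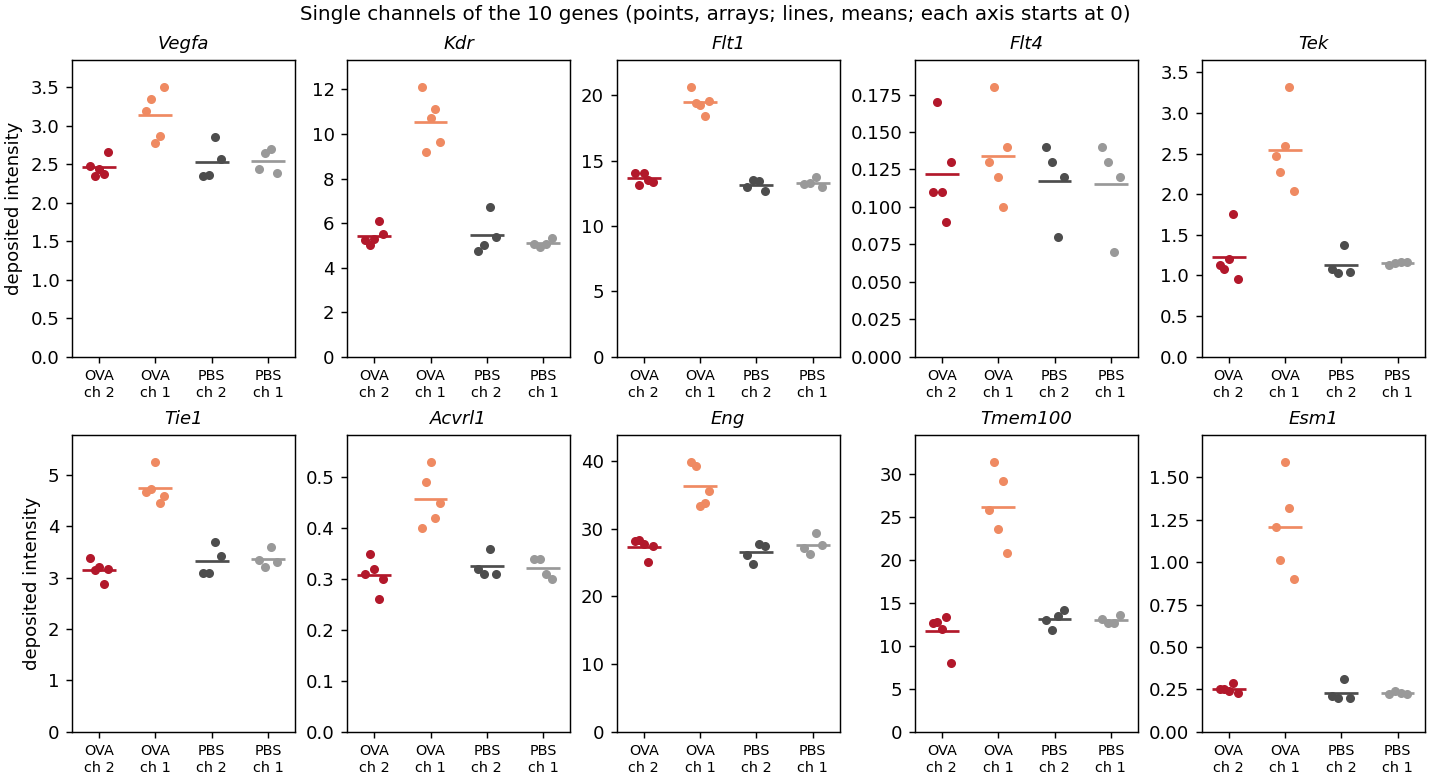
Deposited intensity of each of the 10 genes in channels 2 and 1 of the 5 OVA arrays and channels 2 and 1 of the 4 PBS arrays (points, arrays; lines, means; each axis starts at 0). For 9 of the 10 genes (14.9% of all genes) each channel 1 value of the OVA arrays lies above each channel 1 value of the PBS arrays. Channel 2 overlaps between the groups for all 10, and for all but 0.696% of all genes.

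In single channels the difference lay in channel 1. Channel 1 of the OVA arrays was above that of the PBS arrays without overlap for 9 of the 10 genes, Flt4 being the exception (14.9% of all genes). Tested alone, channel 1 was higher on the OVA arrays for the same 9 (15.6% of all genes), by log2 changes from 0.30 ± 0.09 for Vegfa to 2.38 ± 0.15 for Esm1 (SE). Channel 2, which by the labels holds the lungs compared, overlapped between the groups for each of the 10. It did so for nearly all genes, with only 0.696% having channel 2 all on 1 side. In channel 2 limma called none of the 10 (0 also at an unadjusted p under 0.05, and 0.00778% of all genes after adjustment). The mean of channel 2 on the OVA arrays was between 0.90 (Tmem100) and 1.1 (Esm1) times that on the PBS arrays. The authors' deposited p-value, given per probe and array by a model not described in the sources used here, was under 0.05 on all 5 OVA arrays for 7 of the 10 genes, against 5.92% of all genes with channel 2 lower. The other 3 were Vegfa (3 of 5 arrays), Eng (4 of 5) and Flt4 (0 of 5).

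Among the PBS arrays, replicate 3 had the highest median log2 ratio of these genes. There 8 of the 10 had channel 2 above channel 1, with a median log2 ratio of 0.14, against -0.06, -0.09 and 0.00 on PBS replicates 1, 2 and 4. Its log2 ratios were 0.43 for Esm1 and 0.40 for Kdr, the only 2 of 40 values of these genes on PBS arrays with a deposited p-value under 0.05. The shares over all genes are not given here for these counts. Pan-endothelial markers had median log2 ratios of -0.03, -0.09, 0.09 and 0.09 on PBS replicates 1 to 4. Heart muscle markers also differed between the PBS arrays: the median log2 ratio of 9 such genes was 0.08, 0.61, -0.51 and -0.77 on replicates 1 to 4, and that of 8 adipose genes was 0.03, 0.50, -0.51 and -0.63. The part of those tissues in the result was not tested. Without PBS replicate 3 the 10 calls stood, with a log2 change of -0.94 for Kdr and -2.08 for Esm1.

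The genes did not fall by equal amounts in the deposited ratio. For 7 pairs chosen by role, the difference of the 2 log2 ratios within an array was compared between groups by a two-sided exact permutation test, whose smallest possible p with 126 splits is 0.0159. Kdr fell more than Flt1 by 0.54 on the log2 scale: the within-array difference was -0.44 ± 0.17 on OVA arrays and 0.10 ± 0.23 on PBS arrays (SD, n = 5 and 4, exact permutation p = 0.0159, adjusted over 7 pairs 0.0185). Kdr also fell more than Flt4 (by 0.85) and more than the ligand Vegfa (by 0.71). Tek fell more than Tie1 by 0.46, Tmem100 more than Acvrl1 by 0.59, and Esm1 more than Kdr by 1.18. In the deposited ratio these 6 pairs did not overlap between groups and had the same smallest exact p. The probes of a pair differed in brightness. Mean intensity was 0.123 for Flt4, 0.357 for Acvrl1 and 0.507 for Esm1, against 6.79 for Kdr and 16.4 for Tmem100. The part of dim probes in the differences between pairs was not tested. With the sign of the OVA ratios turned, a setting added after seeing the data, 5 of the 7 pairs stayed separate. Kdr minus Flt1 then overlapped, with 0.26 to 0.66 on OVA arrays and -0.07 to 0.43 on PBS arrays (difference 0.34, exact permutation p = 0.0635, adjusted over 7 pairs 0.0741). For Acvrl1 and its co-receptor Eng the groups overlapped (difference -0.23, exact permutation p = 0.159), with values between -0.46 and 0.13 on OVA arrays and between -0.05 and 0.30 on PBS arrays. In order of size the changes of the deposited ratio ran Esm1, Tmem100, Kdr, Tek, Acvrl1, Tie1, Flt1, Eng, Vegfa and Flt4, and neighbours had overlapping 95% intervals except Esm1 and Tmem100, and Tek and Acvrl1. With the sign of the OVA ratios turned, Tek (1.1) came before Kdr (0.87) and Tie1 (0.61) before Acvrl1 (0.56), and the intervals of Esm1 and Tmem100 alone did not overlap. In channel 1 alone Tek (1.12) and Kdr (1.04) came before Tmem100 (0.99), and Esm1 stayed first.

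**Figure D3:**
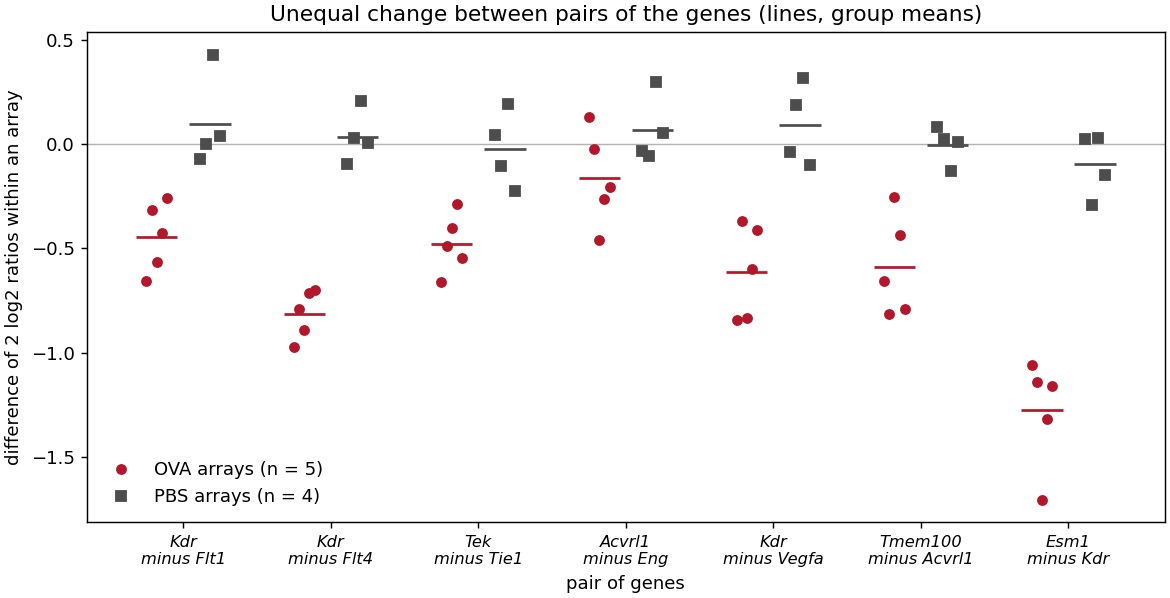
Difference between the log2 ratios of 2 genes on the same array, for 7 pairs in the deposited ratio, on OVA arrays (red circles, n = 5) and PBS arrays (grey squares, n = 4), with group means as lines. The groups are separate for 6 pairs and overlap for Acvrl1 minus Eng, and with the sign of the OVA ratios turned Kdr minus Flt1 would overlap too.

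Other genes of the same pathways, from lists chosen by role, moved in both directions. Of 74 listed genes 73 were tested, and 45 fell, 11 rose and 17 did not pass, with a median log2 change of -0.33. Over all genes tested 23% fell and 17.3% rose, and these shares apply beside each list below. Among other VEGF ligands and receptors, 4 of 6 fell and 2 rose (median -0.29). Nrp1, a co-receptor of Kdr, fell (log2 change -0.68 ± 0.06 SE), whereas Nrp2, the co-receptor of Flt4, rose (0.70 ± 0.06), and so did Pgf, placental growth factor, a ligand of Flt1 (1.04 ± 0.06). For these 3 the limma adjusted p lay between 2.58e-06 and 3.01e-05. Other probes of the neuropilins gave smaller differences, of -0.60 and -0.10 for Nrp1 and 0.22 and 0.09 for Nrp2.

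Of 9 genes induced by VEGF or typical of sprouting tip cells, 4 fell, 2 rose and 3 did not pass (median -0.26). Apln, the peptide apelin, fell by 0.98 ± 0.07 and Dll4, a Notch ligand, fell by 0.74 ± 0.04, while the potassium channel subunit Kcne3 was at 0.83 ± 0.10 (log2 change, SE, adjusted p at most 2.15e-04). Of 8 genes of oxygen sensing, the route that controls Vegfa, 3 fell, 2 rose and 3 did not pass (median -0.08), beside 23% and 17.3% of all genes. Egln3, an oxygen-dependent prolyl hydroxylase, was at -1.09 ± 0.07 and Epas1, the hypoxia factor HIF-2 alpha of endothelium, at -0.61 ± 0.06. Vhl, which marks such factors for destruction, was at 0.41 ± 0.05 (adjusted p at most 3.21e-04 for the 3). Second probes had differences of -0.27 for Egln3 and -0.17 for Epas1.

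Of 7 other angiopoietin and Tie genes, 5 fell, 1 rose and 1 did not pass (median -0.37). Angpt1, the activating ligand of Tek, fell by 1.09 ± 0.06 and Ptprb, the endothelial phosphatase that restrains Tek, fell by 0.84 ± 0.10. Dok2, an adaptor that binds Tek and is also made by blood cells, rose by 1.60 ± 0.05 (log2 change, SE, adjusted p at most 1.79e-04).

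BMP ligands, receptors and targets mostly fell, and the secreted antagonists moved both ways. Of 6 BMP ligands 4 fell, 1 rose and 1 did not pass (median -0.44), with Bmp6 at -0.90 ± 0.10, Bmp7 at -0.82 ± 0.06 and Bmp4 at -0.61 ± 0.13 (log2 change, SE, adjusted p at most 0.00575). The ligands named above for Acvrl1 and Eng changed less. Gdf2 (BMP9) was at -0.28 ± 0.05 (limma adjusted p = 0.00151) and Bmp10 did not pass (0.10 ± 0.05, limma adjusted p = 0.205). Other probes of Gdf2 and Bmp10 are not given here. Of 11 other receptors and Smads 8 fell and none rose (median -0.30). Among them were Tgfbr3 (betaglycan, a relative of Eng) at -1.11 ± 0.11, Bmpr2, the type 2 receptor that pairs with Acvrl1, at -0.70 ± 0.08, and Acvr2b at -0.65 ± 0.06. Of 9 target genes of BMP and Smad signals 7 fell and none rose (median -0.57), among them the transcriptional regulators Hey1 at -0.99 ± 0.15, Hey2 at -0.74 ± 0.05 and Id3 at -0.71 ± 0.06. Of the 6 tested secreted BMP antagonists 2 fell, 2 rose and 2 did not pass (median 0.02), beside 23% and 17.3% of all genes. Fst, follistatin, was at 1.32 ± 0.13 and Nog, noggin, at 0.76 ± 0.11, against -0.60 ± 0.06 for Bmper, an extracellular protein that binds BMPs. For the 9 genes named here from the last 3 lists the limma adjusted p was at most 8.48e-04. Second probes had differences of -0.13 for Tgfbr3, -0.45 for Bmp7 and 0.27 for Nog.

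Of 11 endothelial transcription factors 8 fell, 1 rose and 2 did not pass (median -0.53). Sox7 was at -0.95 ± 0.08, Sox17 at -0.69 ± 0.10 (a second probe at -0.29) and Erg, an ETS factor, at -0.68 ± 0.05 (log2 change, SE, limma adjusted p at most 5.59e-04). With the sign of the OVA ratios turned, 45 of the 73 pathway genes were higher and 12 lower (22.5% and 16.5% of all genes).

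**Figure D4:**
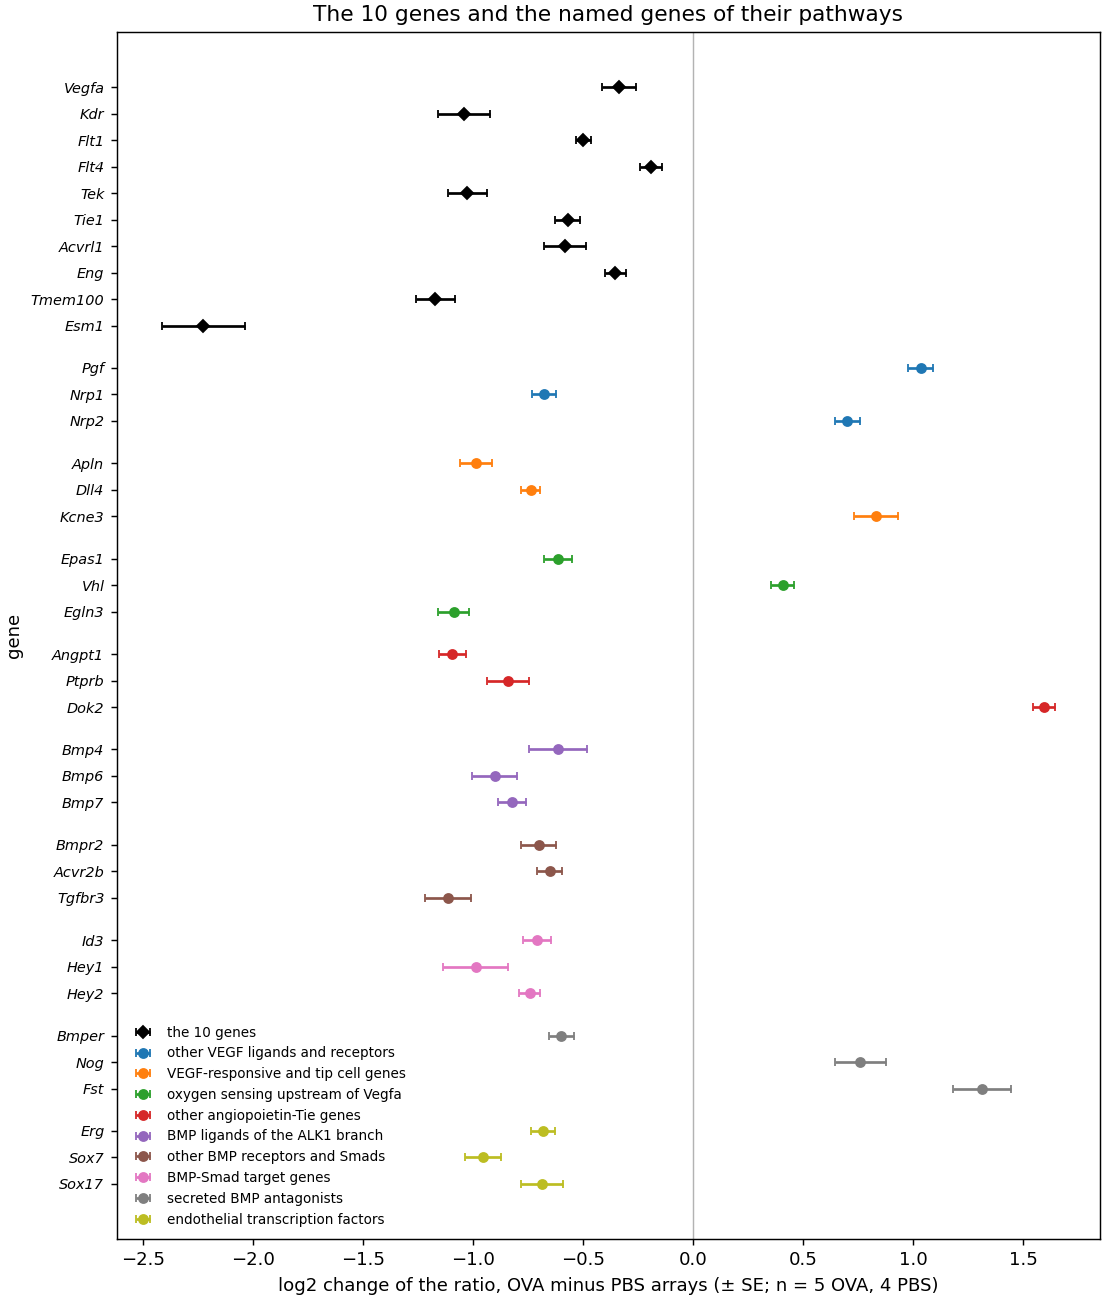
Log2 change of the ratio between OVA and PBS arrays (± SE, n = 5 and 4) for the 10 genes (black diamonds) and for up to 3 named genes of each pathway list (circles, coloured by list). The 10 genes all lie left of 0, while Pgf, Nrp2, Kcne3, Vhl, Dok2, Nog and Fst lie right of it.

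Marker lists placed these changes beside those of other cells, and over all genes 23% fell and 17.3% rose. No marker on the arrays was listed at 0. Of 13 pan-endothelial markers 12 fell and none rose, with a median of -0.54. Cdh5, VE-cadherin, was at -0.45 ± 0.08 (log2 change, SE, limma adjusted p = 0.00170), and Pecam1 (CD31) was at -0.32 ± 0.10 (adjusted p = 0.0379), a call lost without any one of OVA replicates 2, 3 and 4 or PBS replicates 1, 3 and 4 (adjusted p from 0.0597 to 0.104). The summed intensity of the 13 was 83.9 to 93.2 in channel 2 and 123 to 141 in channel 1 of the OVA arrays, and 78.5 to 94.0 in channel 2 and 82.2 to 90.9 in channel 1 of the PBS arrays. Of 7 lung capillary markers 5 fell (median -0.42), and of 5 lymphatic markers 3 fell (median -0.16). All 6 markers of veins or activated endothelium rose (median 0.52), with summed channel 1 intensities of 17.6 to 18.8 on OVA arrays and 20.6 to 23.02 on PBS arrays. Icam1 made up most of these sums, with channel 1 means of 14.3 and 15.2. Its call was near the threshold (log2 change 0.11 ± 0.04 SE, limma adjusted p = 0.0497). The lowest channel 1 mean of this list on OVA arrays was 0.06. In channel 1 alone 10 of the 13 pan-endothelial, 5 of the 7 capillary and 2 of the 5 lymphatic markers rose and none fell, while 4 of the 6 markers of veins or activated endothelium fell and none rose. There 15.6% of all genes rose and 12.0% fell.

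Markers of other cells moved as well. Of 8 tested leukocyte markers 5 rose (median 0.35), with summed channel 1 intensities of 8.77 to 9.83 on OVA arrays and 28.2 to 29.1 on PBS arrays. Of 8 alveolar type 1 markers 7 fell and 1 rose (median -0.74). Of 3 tested alveolar type 2 markers 2 fell, and 4 more were blank on too many arrays for a test. Of 9 pericyte and smooth muscle markers 2 rose and 2 fell (median -0.11), near the 17.3% and 23% of all genes. Of 9 heart muscle markers 1 rose and 1 fell (median -0.45), and none of 9 skeletal muscle or 8 adipose markers passed. In channel 1 alone none of the leukocyte markers rose and 5 fell, 6 alveolar type 1 markers rose and 1 fell, and 1 alveolar type 2 marker rose. There 2 pericyte and smooth muscle markers rose and 2 fell, 6 heart muscle markers rose and 2 fell, 2 adipose markers rose, and no skeletal muscle marker passed. Skeletal muscle markers summed to 35.7 in channel 1 of OVA replicate 2, against 1.25 to 1.67 on the other OVA arrays, and adipose markers to 9.58 in channel 1 of OVA replicate 4, against 3.43 to 5.03. The part of these cells in the fall of the 10 genes was not tested, and without OVA replicate 2 or without OVA replicate 4 the 10 calls stood.

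**Figure D5:**
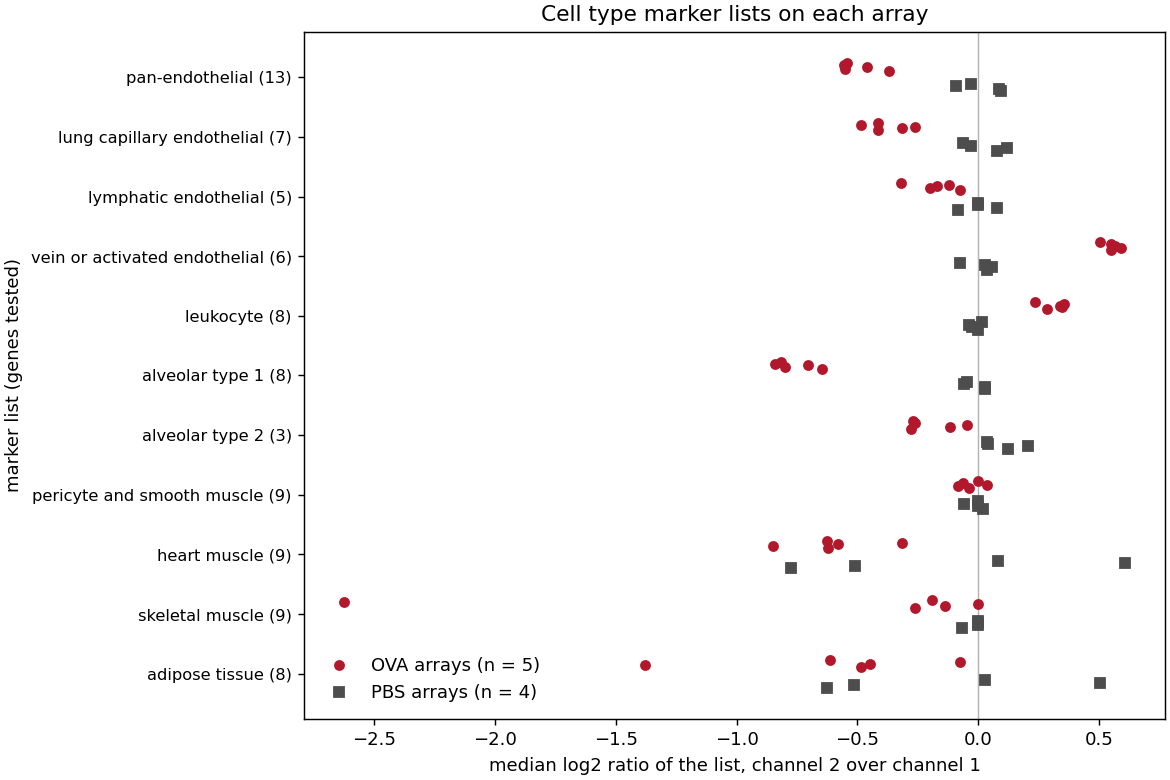
Median log2 ratio of channel 2 over channel 1 for 11 lists of cell type markers on each of the 5 OVA arrays (red circles) and 4 PBS arrays (grey squares), with the number of genes tested in brackets. Pan-endothelial, capillary and alveolar type 1 lists lie below 0 on the OVA arrays, lists of leukocytes and of vein or activated endothelium above 0, and 1 OVA array stands far out for skeletal muscle and 1 for adipose tissue.

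The genes whose log2 ratios lay nearest to those of a member were found by the root mean square difference over the 9 arrays, among 25644 genes with a value on each. In the deposited ratio the nearest to Tmem100 were Selenbp2, a selenium-binding protein with a near-identical copy that a probe may not tell apart (0.107), the potassium channel subunit Kcne2 (0.117) and the Tek ligand Angpt1 (0.128). Those nearest to Kdr were Akr1b7, an aldo-keto reductase (0.119), the transcription factor Sox11 (0.121) and the linker histone H1f4, listed as Hist1h1e (0.122). The mean intensities of these 3 probes were 0.0789, 0.314 and 0.0883, beside a median of 0.14 over all probes.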

How the data were processed

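Per the labels' protocols, whole-lung RNA went through 2 amplification rounds before 2-colour hybridisation. The submitters' processing notes name Agilent Feature Extraction 8.5.1.1. Per the file headers, the deposited table gives every probe on every array both channels' intensity values, with a p-value. How the authors scaled each intensity is not given in the sources used here. Array medians lay between 0.12 and 0.17, channel totals between 41722 and 43610, and 39376 to 39451 probes per array had values. A second deposited table holds log10 ratios of channel 2 over channel 1, which matched the ratio of the intensities (99% of differences under 0.000471). Flags, slides and scan dates were not used here, and 0 columns belonged to other samples.

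Symbols were updated with RefSeq's gene table (22966 probes current, 3126 by synonym, 17 by accession, 4009 left as filed, 9346 unnamed). A gene was represented by its brightest probe, and 25719 genes could be tested. Limma 3.58.1 (R 4.3.3, lmFit and eBayes, no covariates) compared log2 ratios, and exact permutation tests (scipy 1.17.1) compared pairs of genes. The limma script was tested on simulated data. Genes, lists, pairs and tests were chosen with earlier results of these data known. The genes named are the 10, up to 3 with the largest called change in each pathway list, Pecam1, Cdh5, Clca1, Fabp1, and the 3 nearest to Kdr and to Tmem100. Gdf2 and Bmp10 were added as ligands of Acvrl1, and Icam1 as the brightest marker of its list. A gene of the BMP antagonist list is not reported here. The number of arrays limits the precision.

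Alternatives were quantile normalisation, median centring, loess (span 0.3), 0.05 added to both channels, the second table, single channels, OVA signs turned, OVA arrays against 0, no probes from the dimmest share of 0.25, probe means, single probes, a replicate block, array weights, a trended robust prior, and each array left out. Promoters are RefSeq's (GRCm38.p6).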

Additional observations from a re-analysis of the deposited data

Results flagged for a closer look

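In 10 of 118 groups of 4 or 5 arrays, 1 array lay far from the rest, where chance alone gives about 1 group in 20. Among the 10 genes, 3 log2 ratios stood out: Flt1 at 0.028 on PBS replicate 2 (the others between -0.03 and -0.02), Flt4 at 0.19 on PBS replicate 3 (the others at 0) and Tek at -0.92 on OVA replicate 4 (the others between -1.13 and -1.07). Of their channel 2 intensities, Tek was at 1.38 and Esm1 at 0.31 on PBS replicate 3 (the others at most 1.08 and 0.21), and Tmem100 was at 8.03 on OVA replicate 5 (the others at least 11.98). Among other named genes the log2 ratio stood out for Angpt1 (0.17) and Hey2 (0.10) on PBS replicate 3, for Bmp7 (-0.064) on PBS replicate 2 and for Epas1 (-0.54) on OVA replicate 1. PBS replicate 3 holds 5 of the 10 values, all above the other PBS arrays.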

How the results depend on the processing

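Some of the 24 alternatives to the fit could not move the log2 changes of the 10 genes. Median centring, probe means, single probes and leaving out the dimmest probes returned the same values, and the second table holds the same ratios. Under 21 of the 24 alternatives the 10 genes all kept their fall and their calls. The exception was Flt4 with the replicate number as a block (log2 change -0.20, limma adjusted p = 0.0514). That block gave 7665 genes in place of 10372, and 9 of the 10. Same-numbered arrays did not deviate together in the log2 ratio (r from -0.15 to -0.00038 over 4 pairs, 0 of 8 arrays nearest to its own number). An effect common to both channels of an array cancels in the ratio, so a shared batch was not tested. Leaving out each array in turn gave 9147 to 10160 genes called, 10 of the 10, 51 to 57 of the pathway genes and 6 of the 7 pairs. The 29 other named genes counted here leave out Gdf2, Bmp10 and Icam1. Of the 29, Pecam1 alone lost its call under the block (adjusted p = 0.115) or without an array. Pecam1 also did not pass with the sign of the OVA ratios turned (adjusted p = 0.0638) or in channel 1 alone (0.132). Channel 2 alone gave 2 genes (931 at an unadjusted p under 0.05), 0 of the 10 (also 0 unadjusted) and 0 of the pathway genes. Dim probes limit Flt4, Acvrl1 and Esm1: with 0.05 added to both channels their log2 changes were -0.13, -0.51 and -2.03. The same limit holds for other dim named genes. Among them, mean intensities per channel and group were 0.082 to 0.155 for Nog, 0.1325 to 0.224 for Hey2 and 0.178 to 0.28 for Bmp4.

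Log2 changes opposite in sign to the deposited ratio's were as follows, with Gdf2, Bmp10 and Icam1 left out. With the sign of the OVA ratios turned, which sets the sign by construction, they were Vegfa 0.36, Kdr 0.87, Flt1 0.53, Flt4 0.093, Tek 1.1, Tie1 0.61, Acvrl1 0.56, Eng 0.47, Tmem100 1.15 and Esm1 2.24, and for the other named genes Acvr2b 0.62, Angpt1 1.07, Apln 0.98, Bmp4 0.65, Bmp6 0.76, Bmp7 0.85, Bmper 0.61, Bmpr2 0.68, Cdh5 0.47, Dll4 0.72, Dok2 -1.57, Egln3 0.95, Epas1 0.76, Erg 0.66, Fst -1.27, Hey1 0.98, Hey2 0.69, Id3 0.74, Kcne3 -0.79, Nog -0.81, Nrp1 0.65, Nrp2 -0.73, Pecam1 0.28, Pgf -1.10, Ptprb 0.75, Sox17 0.67, Sox7 0.94, Tgfbr3 1.04 and Vhl -0.38. For the pairs, a setting added after seeing the data, the turned differences were Kdr minus Flt1 0.34, Kdr minus Flt4 0.78, Tek minus Tie1 0.50, Acvrl1 minus Eng 0.096, Kdr minus Vegfa 0.52, Tmem100 minus Acvrl1 0.59, Esm1 minus Kdr 1.37, with 5 of the 7 called. In channel 1 alone, whose intensity is the ratio's denominator, they were Vegfa 0.30, Kdr 1.04, Flt1 0.55, Flt4 0.24, Tek 1.12, Tie1 0.49, Acvrl1 0.50, Eng 0.40, Tmem100 0.99 and Esm1 2.38, and for the other named genes Acvr2b 0.66, Angpt1 1.21, Apln 1.07, Bmp4 0.52, Bmp6 1.02, Bmp7 0.85, Bmper 0.63, Bmpr2 0.71, Cdh5 0.36, Dll4 0.72, Dok2 -1.65, Egln3 1.12, Epas1 0.63, Erg 0.73, Fst -1.28, Hey1 0.90, Hey2 0.76, Id3 0.78, Kcne3 -0.79, Nog -0.89, Nrp1 0.63, Nrp2 -0.71, Pecam1 0.20, Pgf -1.13, Ptprb 0.77, Sox17 0.77, Sox7 0.94, Tgfbr3 1.12 and Vhl -0.39. In channel 2 alone, where limma called none, they were Kdr 0.0011, Flt1 0.0502, Flt4 0.052, Tek 0.093, Eng 0.045 and Esm1 0.15, and for the other named genes Acvr2b 0.013, Angpt1 0.12, Apln 0.082, Bmp6 0.11, Bmp7 0.025, Bmper 0.036, Bmpr2 0.0088, Dok2 -0.049, Egln3 0.036, Epas1 0.017, Erg 0.052, Hey2 0.013, Id3 0.067, Nog -0.13, Nrp2 -0.0048, Pgf -0.098, Sox17 0.081 and Tgfbr3 0.0062.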
